A study of Mus musculus with 9 samples.

Results

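The Dusp genes of the mouse encode dual specificity phosphatases, and their transcripts were measured in the ventricles of mice with altered phosphoinositide 3-kinase (PI3K) activity. The members were chosen by symbol, as all probe sets that the annotation of the array platform assigns to Dusp and a number. The rule found 13 probe sets for 9 genes, among 12488 probe sets and 8252 genes with a probe set of their own. Dusp1, Dusp2, Dusp6 and Dusp8 had in addition been listed by name with the intensities and group differences of these same arrays known, so their values are given as a description and without a p-value. The other members, Dusp9, Dusp11, Dusp12, Dusp16 and Dusp19, entered through their symbol alone and are given with the test.

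Each of 9 mice contributed ventricle RNA to 1 array, with 3 mice per group. In the caPI3K group the transgene encoded constitutively active PI3K, and hearts were 20% larger than in wild type littermates, per the labels. In the dnPI3K group it encoded dominant negative PI3K, and hearts were 17% smaller. NTG mice were the nontransgenic controls of both. The promoter of the transgenes and the strain, age and sex of the mice are not in the labels.

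The tissue is labelled as ventricle. Of 8 marker genes of heart muscle cells 7 were on the array, with summed intensities of 188791 to 212054. Of 4 genes on the atrial list, the light chains Myl4 and Myl7 stood apart on 3 arrays. Myl4 read 6896, 3669 and 4304 on NTG replicates 1 and 2 and caPI3K replicate 3, and 27.9 to 499 on the other 6. Nppa, a natriuretic peptide that stressed ventricle also makes, was highest on the dnPI3K arrays (8414 to 11231), where the light chains were dim. Among the NTG and caPI3K arrays it followed them, at 6840, 3744 and 3527 on those 3 arrays and 1450 to 1694 on the rest. Sln did not follow them and read 24.4 to 92.5 over all arrays. The differences of both Dusp8 probe sets and of Dusp6 93285_at are therefore also given without these 3 arrays, a choice made after seeing the data.

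Mitogen-activated protein (MAP) kinases are switched on by phosphorylation of a threonine and a tyrosine, and a dual specificity phosphatase can remove both phosphates. The typical MAP kinase phosphatases have a docking domain for their kinase and often are themselves induced by the pathway they shut off. In heart muscle the ERK, JNK and p38 branches of this pathway respond to growth factors, stretch and stress, and PI3K acts beside them below the same growth factor receptors. Dusp1, Dusp2, Dusp6, Dusp8, Dusp9 and Dusp16 are typical MAP kinase phosphatases. Dusp11, Dusp12 and Dusp19 are atypical members without that docking domain. Dusp11 acts mainly on the phosphates at the end of RNA, so the family name covers more than MAP kinase phosphatases.

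The promoters of the 4 listed genes are shown because the results turn on these genes. RefSeq promoter entries (build GRCm38.p6) were found for 7 of the 9 genes. Each sequence covers the 250 bases before the transcript start, 5′ to 3′ on the strand of the gene. Capitals mark the letters TGACGTCA, the cAMP response element, and CACGTG, an E-box, both of which read the same on either strand. Dusp8 is on the minus strand (chr7:142095285-142095534), Dusp6 on the plus strand (chr10:99262981-99263230), Dusp1 on the minus strand (chr17:26508473-26508722) and Dusp2 on the plus strand (chr2:127335909-127336158).
Dusp8: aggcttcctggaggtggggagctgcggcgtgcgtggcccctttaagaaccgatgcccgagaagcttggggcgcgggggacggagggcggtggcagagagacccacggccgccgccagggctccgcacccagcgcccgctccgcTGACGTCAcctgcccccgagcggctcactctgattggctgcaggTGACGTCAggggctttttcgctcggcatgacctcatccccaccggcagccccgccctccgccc
Dusp6: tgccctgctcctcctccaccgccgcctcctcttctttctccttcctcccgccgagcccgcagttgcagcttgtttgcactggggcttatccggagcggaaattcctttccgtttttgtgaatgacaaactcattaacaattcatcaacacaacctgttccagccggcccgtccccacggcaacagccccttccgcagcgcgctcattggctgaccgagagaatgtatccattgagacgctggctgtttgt
Dusp1: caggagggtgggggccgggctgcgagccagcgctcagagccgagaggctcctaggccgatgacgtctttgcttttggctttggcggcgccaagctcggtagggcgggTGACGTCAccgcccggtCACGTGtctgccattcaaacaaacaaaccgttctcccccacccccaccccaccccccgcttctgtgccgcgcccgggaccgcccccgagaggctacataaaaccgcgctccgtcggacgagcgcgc
Dusp2: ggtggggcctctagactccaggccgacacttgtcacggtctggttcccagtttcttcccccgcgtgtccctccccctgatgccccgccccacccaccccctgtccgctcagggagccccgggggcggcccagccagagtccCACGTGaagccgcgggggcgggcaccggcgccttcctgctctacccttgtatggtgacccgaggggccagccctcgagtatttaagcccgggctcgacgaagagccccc

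The Dusp8 window held TGACGTCA at 2 places, starting 107 and 63 bases before the transcript start, and the Dusp1 window held it at 1 place, starting 143 bases before it. Of 32851 promoter windows of this length 1.55% held these letters, and 10 of them (0.0304%) held them at 2 or more places. CACGTG stood at 1 place in the Dusp1 and Dusp2 windows, and 6.02% of all windows held it. The GC box GGGCGG, searched on both strands, stood at 3 places each in the Dusp8, Dusp1 and Dusp2 windows, and 32.7% of all windows held at least 1. GTAAACA, a motif of FoxO factors that was searched on both strands, was in none of the 7 Dusp windows, and 3.17% of all windows held it. The Dusp6 window held none of these letters. In these 4 windows no motif overlapped another, and in the Dusp1 window GC boxes lie next to the TGACGTCA letters on both sides. They were chosen after the sequences were seen, and a match is not a measured binding site. RefSeq's span of the Dusp8 gene reaches farther upstream than the start used here.

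The deposited values are intensities on a linear scale. They were quantile normalized between the 9 arrays, and the values below are these normalized intensities. The fits used log2 values with a floor at the 20th percentile (35.3). Of the 13 Dusp probe sets 12 were above the floor on at least 3 arrays and were tested. The exception, probe set 102925_at of Dusp9, read 2.70 to 12.3 and lay below the floor on all 9 arrays. Dusp6, Dusp8, Dusp9 and Dusp16 had 2 probe sets each, which sample the same RNA of the same mice.

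**Figure D1:**
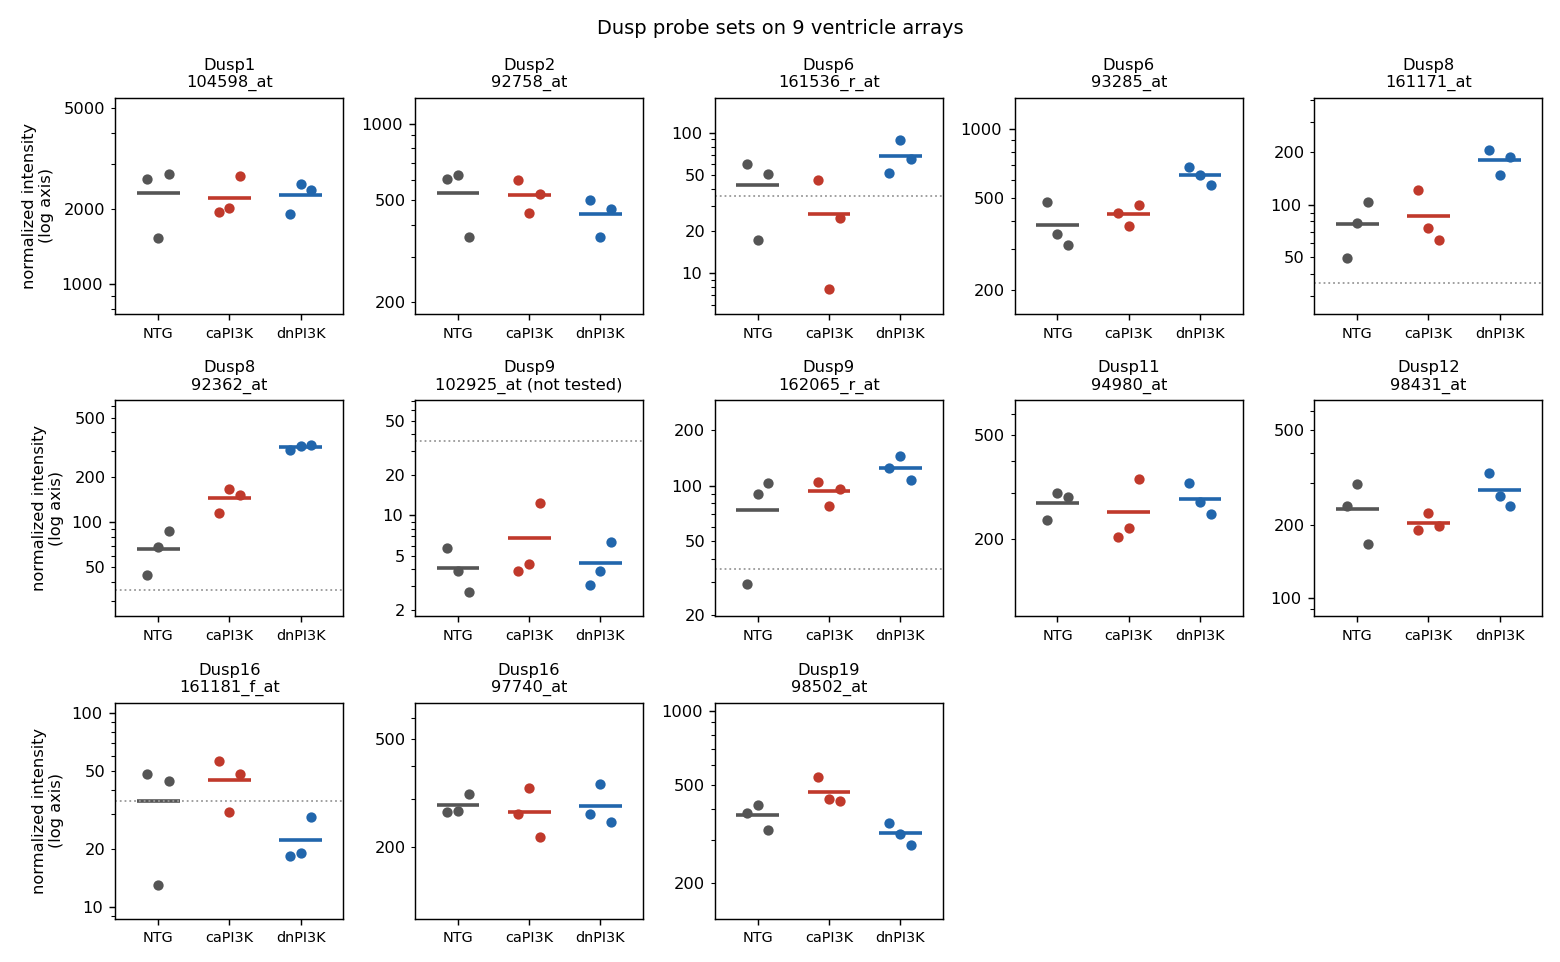
Normalized intensity (log axis, intensity units) of the 13 Dusp probe sets on 3 NTG, 3 caPI3K and 3 dnPI3K arrays. Points are arrays, bars are group means and the dotted line is the floor of 35.3. The dnPI3K arrays stand above all NTG arrays for both Dusp8 probe sets and for Dusp6 93285_at, while the 3 groups of Dusp1 overlap.

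Dusp8 encodes a phosphatase that acts mainly on JNK and p38. Probe set 92362_at read 44.6, 68.7 and 87.2 on the NTG arrays, 115, 167 and 153 on the caPI3K arrays and 305, 321 and 326 on the dnPI3K arrays. All caPI3K arrays thus lay above all NTG arrays, and all dnPI3K arrays lay above both. The group means were 66.8 ± 21.4 (SD, n = 3) in NTG, 145 ± 26.5 in caPI3K and 318 ± 11.3 in dnPI3K. On the log2 scale the difference from NTG was 2.30 ± 0.302 (SE) in dnPI3K, a 4.93-fold level, and 1.15 ± 0.302 in caPI3K, a 2.22-fold level. Over the 10645 probe sets tested, 38 (0.357%) had the 3 groups apart in this order, with NTG lowest and dnPI3K highest. That order was read from this probe set of a listed gene, so the share is a description and not a test.

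Probe set 161171_at of Dusp8 read 49.5, 78.7 and 104 in NTG, 121, 73.0 and 62.5 in caPI3K and 205, 149 and 188 in dnPI3K. The dnPI3K arrays again lay above all others, but here caPI3K and NTG overlapped. The log2 difference from NTG was 1.28 ± 0.363 in dnPI3K and 0.15 ± 0.363 in caPI3K. The probe sets of Dusp8 therefore shared the high dnPI3K level and differed for caPI3K. The animal numbers in the labels put 2 caPI3K and 2 NTG mice in the 2800 series and 1 of each in the 3100 series. Within these, the log2 difference of caPI3K from NTG was 1.33 and 0.81 for 92362_at and 0.59 and -0.73 for 161171_at.

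The NTG level of Dusp8 is dim, so the size of its difference depends on the floor. With a floor at the 40th percentile (113), above every NTG array, 92362_at was 1.49 higher in dnPI3K and 0.35 higher in caPI3K, and 161171_at was 0.67 higher in dnPI3K and 0.04 higher in caPI3K. When any single array was dropped, the dnPI3K difference of 92362_at lay between 2.04 and 2.53 and that of 161171_at between 0.99 and 1.52. Without the 3 arrays with bright atrial light chains, where NTG keeps 1 array that is assumed to vary like the others, the dnPI3K difference was 1.88 for 92362_at and 0.80 for 161171_at. The caPI3K differences were then 0.67 and -0.14. The NTG array kept, replicate 3, had the highest NTG reading of both probe sets.

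Dusp6 encodes the cytoplasmic phosphatase that is selective for ERK and is induced by ERK signalling. Probe set 93285_at read 482, 349 and 313 in NTG, 430.0, 380.1 and 468 in caPI3K and 687, 635 and 575 in dnPI3K. The dnPI3K arrays lay above all other arrays, and caPI3K overlapped NTG. The means were 381 ± 88.7 in NTG, 426 ± 44.1 in caPI3K and 632 ± 55.8 in dnPI3K. The log2 difference from NTG was 0.75 ± 0.182 in dnPI3K, a 1.68-fold level, and 0.18 ± 0.182 in caPI3K. Without the 3 arrays with bright atrial light chains these differences were 1.01 and 0.37. The only NTG array then kept, replicate 3, had the lowest NTG reading (313).

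Probe set 161536_r_at of Dusp6 is dim and read 60.1, 17.4 and 51.5 in NTG, 46.6, 7.73 and 24.9 in caPI3K and 51.9, 88.8 and 65.6 in dnPI3K. The dnPI3K arrays lay above all caPI3K arrays and overlapped NTG, and 6 of the 9 arrays were above the floor. The log2 difference of dnPI3K from NTG was 0.49 ± 0.305, and that of caPI3K was -0.30 ± 0.305. The letters r_at mark a probe set for which some of the usual rules of probe choice were dropped.

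Dusp1 encodes a nuclear phosphatase of p38, JNK and ERK that is an immediate early gene of stress and mitogens. It read 2617, 1523 and 2754 in NTG, 1929, 2005 and 2684 in caPI3K and 1896, 2497 and 2372 in dnPI3K. The 3 groups overlapped, and NTG held both the lowest and the highest array. The means were 2298 ± 675 in NTG, 2206 ± 416 in caPI3K and 2255 ± 317 in dnPI3K, and the log2 differences from NTG were -0.03 ± 0.217 in caPI3K and 0.01 ± 0.217 in dnPI3K. With 1 array left out the dnPI3K difference lay between -0.26 and 0.17.

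Dusp2 encodes a nuclear phosphatase best known from activated lymphocytes. It read 608, 631 and 361 in NTG, 602, 447 and 529 in caPI3K and 504, 359 and 463 in dnPI3K. The groups overlapped, and NTG again spanned most of the range. The log2 difference from NTG was 0.01 ± 0.231 in caPI3K and -0.24 ± 0.231 in dnPI3K. The latter was -0.50 without NTG replicate 3, -0.12 without NTG replicate 1 and -0.10 without NTG replicate 2 or dnPI3K replicate 2. In the 2800 and 3100 series the caPI3K difference had opposite signs, -0.26 and 0.55. Of 6 T cell markers 5 were on the array and 3 were tested, and their summed intensity was 306 to 424 in NTG, 179 to 497 in caPI3K and 157 to 380.0 in dnPI3K, with Cd8a below the floor on every array. The part of lymphocytes in the Dusp2 signal was not tested.

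**Figure D2:**
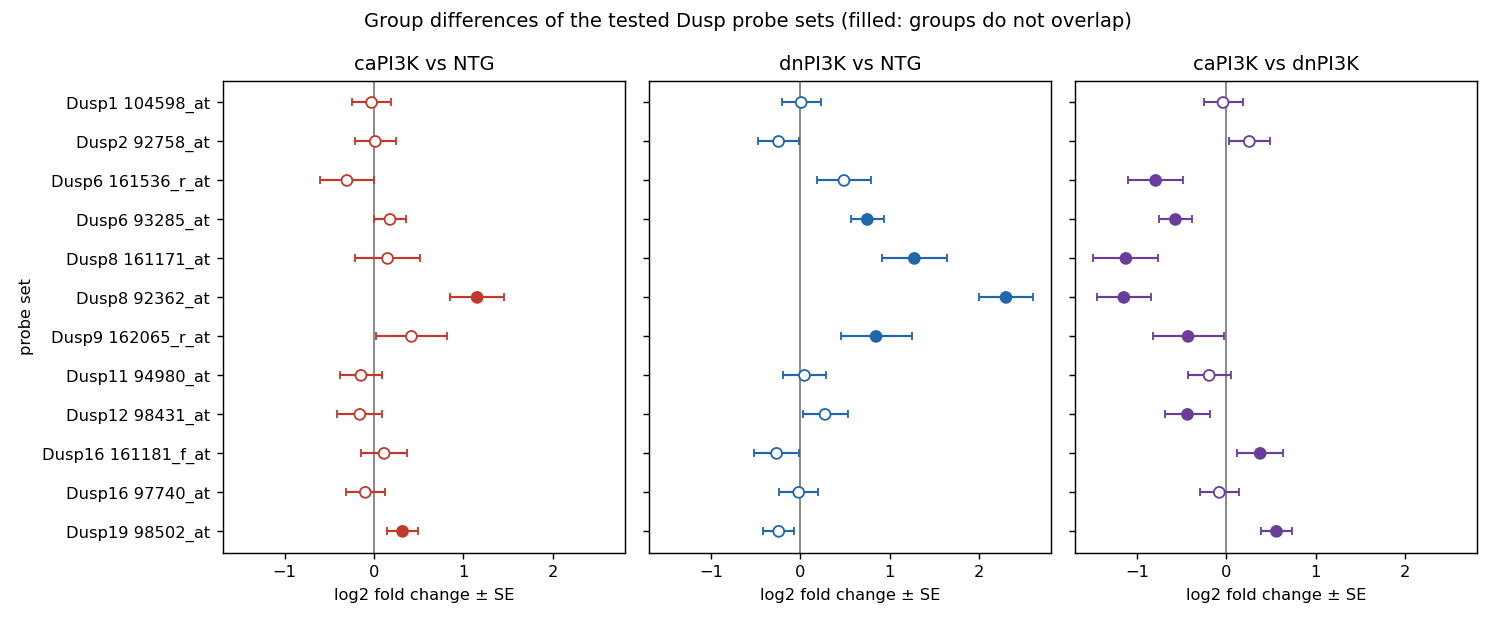
Log2 fold change ± SE of the 12 tested Dusp probe sets in the 3 comparisons, 3 arrays per group. Filled points mark probe sets whose groups do not overlap. The value farthest from 0 is that of Dusp8 92362_at in dnPI3K against NTG, at 2.30, and Dusp1 lies between -0.04 and 0.01 in all 3 comparisons.

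Among the members that entered through their symbol alone, Dusp19 encodes an atypical phosphatase of the JNK pathway. It read 386, 415 and 328 in NTG, 538, 440.2 and 429.6 in caPI3K and 349, 318 and 287 in dnPI3K. The caPI3K arrays lay above all others, while dnPI3K and NTG overlapped. The means were 376 ± 44.6, 469 ± 59.99 and 318 ± 31.3. By limma, caPI3K differed from dnPI3K by 0.56 ± 0.172 on the log2 scale (adjusted p = 0.117) and from NTG by 0.32 ± 0.172 (adjusted p = 0.756), and dnPI3K differed from NTG by -0.24 ± 0.172 (adjusted p = 0.575). None of these passed the threshold of 0.05. In the 2800 and 3100 series caPI3K exceeded NTG by 0.28 and 0.39.

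Dusp9 encodes an ERK-selective phosphatase. Its probe set 162065_r_at read 29.4, 90.5 and 103 in NTG, 105, 78.0 and 95.7 in caPI3K and 124, 145 and 107 in dnPI3K. The dnPI3K arrays lay above all others, by a narrow margin and with 1 NTG array far below the rest and below the floor. The log2 difference of dnPI3K from NTG was 0.85 ± 0.397 (limma adjusted p = 0.356), and it was 0.37 without NTG replicate 1. The difference of caPI3K from NTG was 0.42 ± 0.397 (adjusted p = 0.867).

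Dusp16 encodes a phosphatase of JNK and p38. Its probe set 97740_at read 217 to 341 over the 9 arrays, and its log2 differences from NTG were -0.10 ± 0.220 in caPI3K (limma adjusted p = 0.957) and -0.02 ± 0.220 in dnPI3K (adjusted p = 0.986). Probe set 161181_f_at, whose ending marks sequence shared within a gene family, read 13.0 to 56.5 and was above the floor on 4 arrays. All 3 dnPI3K arrays and caPI3K replicate 2 lay below the floor, so these arrays have no order. The fitted difference of caPI3K from dnPI3K was 0.38 ± 0.255 (limma adjusted p = 0.528), beside -0.08 ± 0.220 for 97740_at (adjusted p = 0.911).

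Dusp11, the RNA phosphatase, read 203 to 339, and its log2 differences from NTG were -0.15 ± 0.240 in caPI3K (limma adjusted p = 0.940) and 0.05 ± 0.240 in dnPI3K (adjusted p = 0.958). Dusp12, an atypical member that binds zinc, read 241, 296 and 167 in NTG, 192, 225 and 199 in caPI3K and 331, 266 and 241 in dnPI3K. Its dnPI3K arrays lay above all caPI3K arrays and overlapped NTG. The log2 difference of caPI3K from dnPI3K was -0.44 ± 0.252 (limma adjusted p = 0.441), and from NTG caPI3K differed by -0.16 ± 0.252 (adjusted p = 0.935) and dnPI3K by 0.28 ± 0.252 (adjusted p = 0.680). The last was 0.05 without NTG replicate 3, 0.15 without dnPI3K replicate 1 and 0.47 without NTG replicate 2.

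Counted together, 0 of the 6 tested probe sets of unlisted genes passed the limma threshold in dnPI3K against NTG. Over all 10645 probe sets tested 2.18% did so. In that comparison 0 of the 6 had an unadjusted p under 0.05, where 14.8% of all did. For caPI3K against NTG 0 of the 6 passed by limma, where 0.0845% of all did. An unadjusted p under 0.05 was found there for 0 of the 6 and 6.9% of all. For caPI3K against dnPI3K 0 of the 6 passed by limma, where 3.24% of all did. In it 1 of the 6, Dusp19, had an unadjusted p under 0.05, where 16.4% of all did. Of the 232 calls in dnPI3K against NTG 108 were higher and 124 lower, and 135 were higher and 93 lower with each array scaled to the same median. The 9 calls in caPI3K against NTG were 5 higher and 4 lower, and they were 9 and 4 with that scaling. Dusp1, Dusp2, Dusp6 and Dusp8 are not among the 6, since they were listed with results known. Nothing is read from these counts.

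Groups that did not overlap were counted over all 12 tested Dusp probe sets, the listed genes included. In dnPI3K against NTG, 4 of the 12 had all dnPI3K arrays above all NTG arrays, where 9.91% of all probe sets did, and 0 had them below, where 9.21% did. These were both Dusp8 probe sets, Dusp6 93285_at and Dusp9 162065_r_at, of which only the last had not been listed. Against NTG, 2 of the 12 (Dusp8 92362_at and Dusp19) had all caPI3K arrays higher, where 6.5% of all did, and 0 had them lower, where 5.59% did. In caPI3K against dnPI3K, 6 of the 12 had all caPI3K arrays lower, where 12.3% of all did, and 2 had them higher, where 11.4% did. Among the 6 probe sets of unlisted genes this came to 2 lower and 2 higher, and 1 of the latter, Dusp16 161181_f_at, rests on readings below the floor. The median log2 difference of those 6 was 0.02 in dnPI3K against NTG, 0.01 in caPI3K against NTG and -0.14 in caPI3K against dnPI3K, beside medians of 0.00326, -0.000686 and 0.000218 over all probe sets tested. Both transgenic groups were compared with the same 3 NTG arrays.

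Other properties of the arrays moved with the groups in which Dusp8 and Dusp6 were high. Spike-in controls had a geometric mean of 1567 to 1984 on the dnPI3K arrays and 2607 to 3519 on the others, and the 3′ control for 18S ribosomal RNA read 3303 to 8097 against 462 to 671. No NTG or caPI3K mouse has an animal number in the series of the dnPI3K mice, so that series and genotype cannot be told apart. Of 13 lists of cell type markers 2 did not overlap between dnPI3K and NTG, 1 higher and 1 lower. Of all single probe sets tested, 9.91% were higher and 9.21% lower without overlap in that comparison. The 10 fast skeletal muscle genes summed to 3987 to 4874 in dnPI3K, 8782 to 12302 in NTG and 15401 to 22216 in caPI3K. On the NTG and caPI3K arrays most of the sum came from Myl1 and Casq1, the only members of the list with caPI3K above NTG and dnPI3K below it on every array, and Mylpf was lower in caPI3K (190 to 213) than in NTG (243 to 291). The 5 smooth muscle genes summed to 3895 to 4709 in dnPI3K, 2504 to 2987 in NTG and 1926 to 2424 in caPI3K, and of its members Acta2 and Myh11 had all dnPI3K arrays above all NTG arrays. In caPI3K against NTG these lists and the neutrophil list (181 to 240.3 against 261 to 401) did not overlap. There, 6.5% of all single probe sets tested were higher and 5.59% lower without overlap. No marker gene was listed at 0 on any array, and the part of these properties in the Dusp levels was not tested. In whole ventricle, fewer cells of a type and less RNA per cell cannot be told apart.

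The kinases and target genes around the phosphatases were followed on 9 lists, of which 86 genes were tested, each with its brightest probe set. These lists were drawn up with earlier results of these data known. Their counts and p-values, here and below, are therefore a description. In caPI3K against NTG 0 of the 86 passed by limma and 2 had an unadjusted p under 0.05, beside 0.0845% and 6.9% of all probe sets. In dnPI3K against NTG 1 rose and 1 fell, and 15 had an unadjusted p under 0.05, beside 2.18% and 14.8% of all. For caPI3K against dnPI3K 1 was higher and 2 were lower, and 15 had an unadjusted p under 0.05, beside 3.24% and 16.4% of all. The median log2 difference over the 86 was 0.02, 0.01 and 0.00473 in the 3 comparisons.

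Of the 8 MAP kinase genes tested, 0 passed in any comparison. In dnPI3K against NTG 5 were above 0 and 3 below, and the values with the smallest p were those of Mapk8, which encodes JNK1, at -0.38 ± 0.126 (limma adjusted p = 0.184) and of Mapk12, a p38 kinase of muscle, at 0.33 (adjusted p = 0.251). Of the other JNK genes in that comparison, Mapk9 was at 0.34 ± 0.195 (limma adjusted p = 0.465) and Mapk10 at -0.37 ± 0.240 (adjusted p = 0.542). Of 6 MAP kinase kinase and 12 MAP kinase kinase kinase genes 0 passed. Of the latter 12, 5 were above 0 and 7 below in dnPI3K against NTG. Map3k1, an activator of the JNK branch, was at -0.90 ± 0.225 (limma adjusted p = 0.077). Araf was at 0.95 ± 0.408 (limma adjusted p = 0.312).

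Of 4 tested genes for kinases that MAP kinases activate, 1 passed. Mapkapk2, the kinase below p38, read 5579, 6160 and 5746 in NTG, 5997, 5708 and 4650.0 in caPI3K and 7117, 8833 and 8414 in dnPI3K. The dnPI3K arrays lay above all others. The log2 difference of caPI3K from dnPI3K was -0.58 ± 0.115 (limma adjusted p = 0.0219), and that of dnPI3K from NTG, 0.47 ± 0.115, did not pass (adjusted p = 0.0656). A second Mapkapk2 probe set gave 0.67 ± 0.145 in dnPI3K against NTG and passed (limma adjusted p = 0.0429). The caPI3K against dnPI3K call was lost without caPI3K replicate 2 or 3 or dnPI3K replicate 2 or 3 (differences of -0.62 to -0.47), with each array scaled to the same median (-0.51, limma adjusted p = 0.085), without the filter and without the intensity trend. The dnPI3K against NTG difference passed without caPI3K replicate 3, with the floor at the 40th percentile and with dim probe sets left out by their mean.

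Other phosphatases gave 0 calls. Of 8 tested genes for further phosphatases that act on MAP kinases, 5 were above 0 in dnPI3K against NTG. Ppm1b was at 0.50 ± 0.163 (limma adjusted p = 0.171) and Ptpn5, which averaged 19.3 in dnPI3K, below the floor, at -1.52 ± 0.512 (adjusted p = 0.188). Of 6 tested dual specificity phosphatases with other symbols, Styx had the smallest p. Styx encodes a relative of the Dusp proteins without catalytic activity, and it was at 1.25 ± 0.338 in dnPI3K against NTG (limma adjusted p = 0.098). Of 12 listed inhibitors of the ERK pathway 5 were tested, namely Spry4, Spred2, Rasa1, Pea15a and Pebp1. Among these 0 passed, with differences of -0.09 to 0.29 in dnPI3K against NTG. No other Sprouty or Spred gene was tested.

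**Figure D3:**
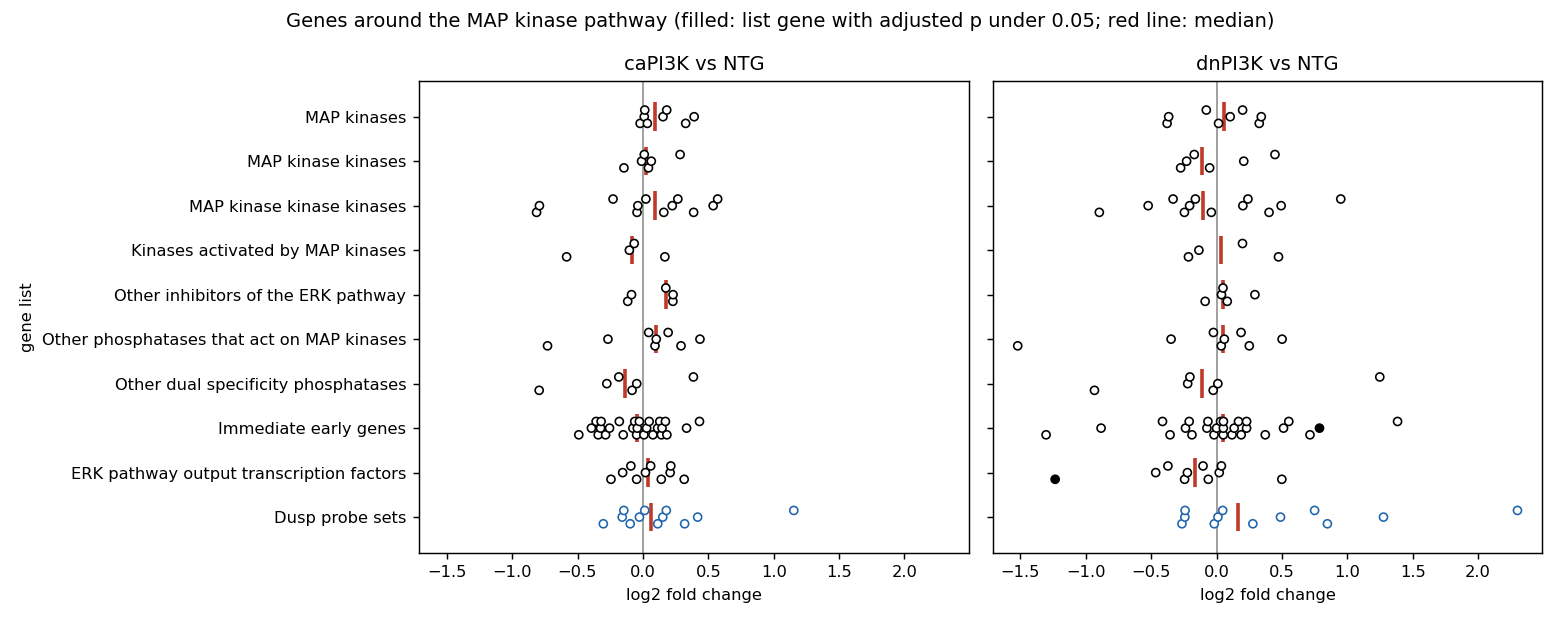
Log2 fold change of the genes on 9 lists and of the 12 tested Dusp probe sets in caPI3K and dnPI3K against NTG. Each point is a gene (for Dusp, a probe set), red lines are list medians and filled points are list genes past the limma threshold. Cebpb (0.79) and Mef2c (-1.23) are the filled points in dnPI3K, and caPI3K has none.

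Immediate early genes are switched on within minutes by MAP kinases, and Dusp1 is usually counted among them. Of 27 tested, 17 were above 0 and 10 below in dnPI3K against NTG, with a median of 0.05. Cebpb, a transcription factor of stress and growth, rose. It read 905, 1028 and 1129 in NTG, 803, 797 and 1126 in caPI3K and 1629, 1752 and 1890.3 in dnPI3K. The log2 difference was 0.79 ± 0.148 in dnPI3K against NTG (limma adjusted p = 0.0243) and -0.97 ± 0.148 in caPI3K against dnPI3K (adjusted p = 0.00593). The former lost its call without any single dnPI3K array and without NTG replicate 1 or 2, where differences were 0.71 to 0.84 and limma adjusted p reached 0.0942. It was also lost without the filter and without the intensity trend. Maff (1.38) and Nr4a2 (-1.30) did not pass (limma adjusted p = 0.244 and 0.193).

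Of 10 tested transcription factors that the pathway acts on, Mef2c fell. Mef2c encodes a factor of heart muscle that p38 phosphorylates. It read 739, 1233 and 937 in NTG, 979, 927 and 1064 in caPI3K and 474, 379 and 365 in dnPI3K, so the dnPI3K arrays lay below all others. The log2 difference was -1.23 ± 0.183 in dnPI3K against NTG (limma adjusted p = 0.00752) and 1.29 ± 0.183 in caPI3K against dnPI3K (adjusted p = 0.00403). Of the other Mef2c probe sets, a pair was lower in dnPI3K than in NTG as well (-1.13 ± 0.288 and -1.62 ± 0.298, limma adjusted p = 0.0811 and 0.0228), and 97357_at was at 0.08 ± 0.200 (adjusted p = 0.894).

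The probe sets whose log2 values followed each listed gene most closely over the 9 arrays were sought among 9408 probe sets of other genes. For Dusp8 92362_at they were Rpl10a (Pearson r = 0.962), Tgoln1 (r = 0.958) and Smoc2 (r = 0.954). All 3 averaged lowest in NTG and highest in dnPI3K, the same order as Dusp8. Means in NTG, caPI3K and dnPI3K were 4427, 4666 and 4754 for Rpl10a and 309, 381 and 521 for Tgoln1. Smoc2, a matrix-associated protein, averaged 777, 994 and 1236. For Dusp6 they were Aktip (r = 0.959), Eef1a1 (r = 0.957) and Dap (r = 0.950), all highest on average in dnPI3K. For Dusp1 they were Adss (r = 0.970), Zw10 (r = 0.951) and Ssr1 (r = 0.927), and for Dusp2 Abhd17a (r = 0.944), Slc38a5 (r = 0.939) and Ralgds (r = 0.912). These are descriptions over 9 arrays of 3 groups, and group differences enter them.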

How the data were processed

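RNA from ventricles of 9 mice was measured on 9 one-colour oligonucleotide arrays. The deposited table holds 1 intensity per probe set and array on a linear scale. Per the labels, the scanner's photomultiplier was set to 10%. No source used here names the software behind the values. On every array the 2% trimmed mean was 500.4, and medians were 174.8 to 194. Arrays correlated at 0.947 to 0.966 in the same group and at 0.939 to 0.959 otherwise. Symbols came from the platform annotation (1 symbol for 10855 probe sets, several for 396, and 1237 not listed).

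Groups (caPI3K, dnPI3K, NTG) were read from the sample titles. Whether the mice of a group came from separate litters is not stated. Replicate numbers follow accession order and pair no animals. After quantile normalization, values under the 20th percentile were set to it, and log2 was taken. Probe sets above the floor on at least 3 arrays were tested (10645), without the 66 array controls. Limma 3.58.1 in R 4.3.3 fitted all 9 arrays by group (eBayes with an intensity trend, 6 residual degrees of freedom). P-values are two-sided and adjusted by Benjamini-Hochberg over all probe sets tested, with a threshold of 0.05. Means ± SD are of normalized intensities before the floor. The number of arrays limits the precision.

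The members and the lists were chosen with earlier results of these data known. By rule, all Dusp probe sets were named, with the 3 most alike genes per listed gene and, of each list, genes past the threshold and up to 4 with the smallest p. The procedure was tested on simulated data. Alternatives changed the normalization, floor, filter, moderation, arrays fitted, animal number block and each array left out. Leaving out 3 arrays together was added after seeing the data.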

Additional observations from a re-analysis of the deposited data

How the results depend on the processing

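The 36 Dusp differences were recomputed under up to 19 alternatives, 9 of which leave out 1 array. The block for the animal number series could be fitted for caPI3K against NTG only. Alternatives in which a dim probe set did not pass the filter gave no value for it. Small differences changed sign. In dnPI3K against NTG, Dusp11 was at -0.00457 with the deposited values, and Dusp16 97740_at was at 0.0147 with each array scaled to the same median. With 1 array left out, the range in dnPI3K against NTG was -0.0611 to 0.138 for Dusp11 and -0.154 to 0.0767 for Dusp16 97740_at. In caPI3K against NTG it was -0.0632 to 0.709 for Dusp9, -0.384 to 0.0294 for Dusp12, -0.0369 to 0.299 for Dusp16 161181_f_at and -0.2499 to 0.0513 for Dusp16 97740_at, and in caPI3K against dnPI3K it was -0.233 to 0.0685 for the last. The cause was not tested.

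The background counts moved more. In caPI3K against NTG 9 calls became 1 without the filter or without the intensity trend. Limma fits of the 2 groups by themselves, and with a block for the animal number series, gave 0, with 660 and 673 at an unadjusted p under 0.05. In dnPI3K against NTG 232 became 138 without the filter, 94 without the trend and 94 with the 2 groups alone. In caPI3K against dnPI3K 345 became 219 without the filter and 151 without the trend. With 1 array left out the counts lay between 0 (by limma, without caPI3K replicate 2, dnPI3K replicate 3 or NTG replicate 2 or 3, with 565 to 837 at an unadjusted p under 0.05) and 20 (without NTG replicate 1), between 82 (without dnPI3K replicate 2) and 235, and between 134 (without dnPI3K replicate 2) and 435 in the 3 comparisons. Fewer arrays leave fewer residual degrees of freedom. No paired analysis was possible because the labels match no single mice across groups. The animal number series that caPI3K and NTG share entered as the block above.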
